A study of Mus musculus with 91 samples.

Results

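The activators of the circadian clock were followed through the day in ribosome-bound mRNA of D1 and D2 neurons of the mouse nucleus accumbens. They are Arntl (ENSMUSG00000055116, also called Bmal1), Npas2 (ENSMUSG00000026077) and Clock (ENSMUSG00000029238). These 3 genes were taken by identifier from the deposited table of 14355 genes, and all 3 had counts in all 91 libraries. In Drd1-Cre mice, Cre marked D1 neurons. In A2a-Cre mice it marked D2 neurons. Both lines carried the RiboTag allele, which adds a hemagglutinin tag to the ribosomal protein Rpl22 in cells with Cre, and an antibody to the tag pulled down the ribosomes with their mRNA. Each library came from nucleus accumbens punches pooled from 2 mice over 10 weeks old, kept in 12 h of light and 12 h of dark. Mice were sampled at 6 Zeitgeber times (ZT, the hours since the lights came on), from ZT 2 to ZT 22 in steps of 4 h. D1 libraries came from 22 male and 23 female samples and D2 libraries from 23 male and 23 female samples, in 24 groups of 3 or 4. Every group carried Cre and the tag. Cell type and mouse line go together in this design and cannot be told apart, and fewer neurons of a type cannot be told apart from less RNA per neuron. The sources used here do not say that samples of a group came from separate cohorts, so the p-values measure the spread between these samples.

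BMAL1, the protein of Arntl, pairs with CLOCK or with NPAS2, and the pair binds E-box sequences and switches on the Per and Cry genes, whose proteins later block the pair. The same pair switches on the genes of the REV-ERB receptors, which repress Arntl through ROR response elements in its promoter, while ROR receptors activate it there. This second loop gives Arntl mRNA its daily rhythm in most tissues of the mouse. NPAS2 is a paralog of CLOCK that is abundant in the forebrain, striatum included, and can stand in for CLOCK as the partner of BMAL1.

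Total counts ranged from 6872165 to 24665262 per library, with a median of 14047068. Raw counts ranged from 187 to 1231 for Arntl, from 809 to 4018 for Npas2 and from 1163 to 5068 for Clock. Levels are given as CPM, the count of a gene scaled to a common library total after TMM adjustment of the totals. CPM is not divided by gene length, so no level is set against that of another gene. Sample titles carry a letter from A to E, whose meaning the labels do not state. The D1 male libraries ZT10 B, ZT22 B and ZT18 D stood apart from the other libraries in earlier work on these data, and values without them are given beside the results that they move.

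The promoter of Arntl is shown because its ROR response elements are the textbook link between the clock and Arntl mRNA, and that of Npas2 for comparison. Both are RefSeq windows on GRCm38.p6, from 250 bases before to 50 bases after an annotated start. Arntl lies on chr7:113178471-113314126 and the window shown is chr7:113207261-113207560, on the plus strand. Npas2 lies on chr1:39193702-39363240 and its window is chr1:39194022-39194321, on the plus strand. Capitals mark matches to AGTAGGTNA, one form of the core of a ROR response element.
Arntl: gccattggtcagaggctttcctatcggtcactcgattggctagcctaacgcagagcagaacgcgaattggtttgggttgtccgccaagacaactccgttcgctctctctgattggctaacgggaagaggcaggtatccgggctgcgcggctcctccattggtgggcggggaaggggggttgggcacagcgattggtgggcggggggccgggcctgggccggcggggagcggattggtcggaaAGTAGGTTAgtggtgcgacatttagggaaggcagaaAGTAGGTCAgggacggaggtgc
Npas2: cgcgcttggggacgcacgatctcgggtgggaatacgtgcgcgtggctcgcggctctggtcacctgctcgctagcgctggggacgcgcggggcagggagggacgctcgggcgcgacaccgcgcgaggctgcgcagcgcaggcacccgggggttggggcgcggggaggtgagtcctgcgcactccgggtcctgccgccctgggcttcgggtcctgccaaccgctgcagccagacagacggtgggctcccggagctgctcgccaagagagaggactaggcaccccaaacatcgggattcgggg

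The Arntl window shown held 2 matches to AGTAGGTNA, at bases 243 to 251 and 279 to 287 counted from its 5′ end, with both strands searched. The second overlaps a match to the nuclear receptor half-site AGGTCA at bases 282 to 287. Among 32851 mouse promoter windows of 300 bases, 0.591% held AGTAGGTNA and 16.3% held AGGTCA. A second Arntl window, chr7:113207215-113207514, overlaps the first; it held 1 match to AGTAGGTNA, which is the first of the 2 above, and no AGGTCA. The Npas2 window held neither motif, and none of these windows held the E-box CACGTG, which 7.15% of windows held. Clock (chr5:76209868-76305603) has 3 such windows. None of them held AGTAGGTNA or CACGTG, and 1 held an AGGTCA half-site on the opposite strand. The N of AGTAGGTNA stands where the 2 Arntl matches differ, so its share does not measure how rare ROR response elements are. Other forms were not searched for, so a window without AGTAGGTNA may hold one. These are matches of letters, and binding was not measured.

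Arntl mRNA on ribosomes was high around lights on and low late in the light phase, in both cell types. The lowest, median and highest level among D1 libraries was 51.6, 55.3 and 58.4 CPM at ZT2 (n = 8), and 22.7, 39.0 and 43.8 CPM at ZT10 (n = 8). At ZT22 the D1 libraries again reached 47.0, 52.0 and 59.7 CPM (n = 8). All 8 libraries of ZT2 lay above all 8 of ZT10. The other times were in between, with means of 43.9 ± 2.43 CPM at ZT6 (SD, n = 8), 42.3 ± 2.93 CPM at ZT14 (SD, n = 7) and 42.9 ± 6.75 CPM at ZT18 (SD, n = 6). Among the 6 times ordered by mean (ZT2, 22, 6, 18, 14, 10), 4 of the 5 neighbouring steps were smaller than the larger SD of the pair, so the order of neighbours is mostly not resolved, while the ends are. Without the 3 libraries that stand apart the mean was 39.5 ± 3.42 CPM at ZT10 (SD, n = 7), still the lowest. At ZT18 it was then 45.5 ± 2.73 CPM (SD, n = 5), above that of ZT6.

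In D2 neurons the lowest, median and highest level of Arntl was 53.1, 55.5 and 77.2 CPM at ZT2 (n = 7), and 36.3, 40.4 and 47.5 CPM at ZT10 (n = 8). At ZT22 the values were 48.9, 55.3 and 62.0 CPM (n = 8). All 7 libraries of ZT2 lay above all 8 of ZT10, as in D1 neurons. The ratio of the highest to the lowest mean was 1.48 in D1 neurons and 1.44 in D2 neurons. Single libraries raised both ratios: the D1 male library ZT10 B, at 22.7 CPM, and the D2 male library ZT2 B, at 77.2 CPM. Means were 45.2 ± 3.34 CPM at ZT6 (SD, n = 7), 45.6 ± 2.91 CPM at ZT14 (SD, n = 8) and 51.0 ± 2.83 CPM at ZT18 (SD, n = 8), all between the 2 ends. The D2 male library ZT2 B held the 77.2 CPM and lay above the rest.

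**Figure D1:**
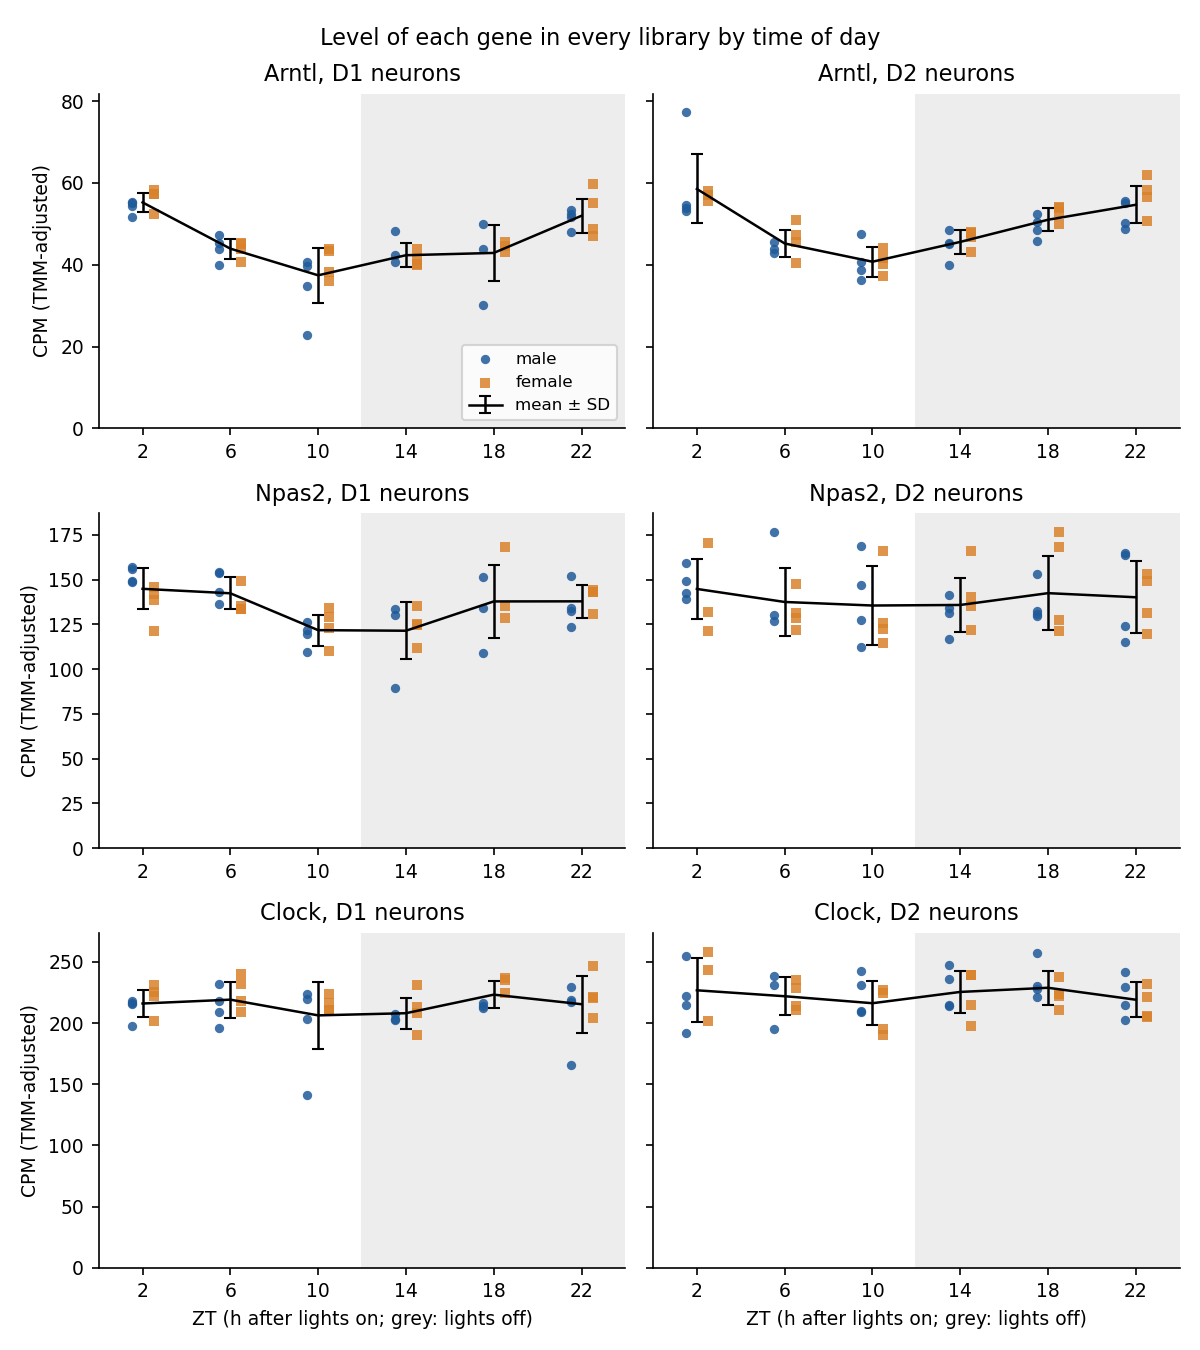
Level of Arntl, Npas2 and Clock (CPM, vertical axis, from 0) in each of 45 D1 and 46 D2 libraries against ZT in hours (horizontal axis), with males as circles, females as squares, and the mean and SD of each time as a line with bars. Arntl falls to a low at ZT10 in both cell types (37.4 CPM in D1, 40.8 CPM in D2), while Clock stays within overlapping ranges at all times.

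A 24 h cosine fitted to the counts gave Arntl an amplitude, from mean to peak, of 0.25 ± 0.04 on the log2 scale in D1 neurons (SE), with a fitted peak at ZT 23.8 ± 0.592 h (SE). The ratio of fitted peak to trough was 1.42, and the edgeR quasi-likelihood test gave an adjusted p of 0.000367. In D2 neurons the amplitude was 0.23 ± 0.03, the peak ZT 22.9 ± 0.479 h, the ratio 1.38 and the edgeR adjusted p 4.42e-06. By p, Arntl ranked 6 in D1 and 7 in D2 neurons among 14355 genes. Its amplitude exceeded that of 94.7% of genes in D1 and 95.3% in D2 neurons, and the median gene had fitted amplitudes of 0.09 and 0.07.

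Of the 3 activators, 1 was called rhythmic in D1 neurons, where 0.495% of all genes were, and 1 in D2 neurons, where 2.94% were. It was Arntl in both. With the letter as a replicate block, 1.13% of genes were called in D1 and 22.3% in D2 neurons, and Arntl remained the only activator called, with an edgeR adjusted p of 6.6e-08 in D2 neurons. Without the 3 libraries that stand apart the D1 amplitude was 0.23, with an edgeR adjusted p of 1.32e-06. No alternative ended either call, with edgeR, DESeq2 or limma adjusted p-values of at most 0.0473 in D1 and 0.00232 in D2 neurons. Fitted within single letters, the amplitude of Arntl was 0.24 in A, 0.39 in B, 0.18 in C and 0.25 in D for D1 neurons. For D2 neurons it was 0.16 in A, 0.28 in B, 0.28 in C and 0.22 in D. Peaks within letters lay between ZT 22.2 and ZT 1.63 in every case.

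Npas2, the forebrain partner of BMAL1, had a smaller fitted swing in D1 neurons, whose call depended on the method. The lowest, median and highest level in D1 libraries was 121, 147 and 157 CPM at ZT2 (n = 8) and 134, 140 and 155 CPM at ZT6 (n = 8). It was 110, 123 and 134 CPM at ZT10 (n = 8), and 89.7, 125 and 135 CPM at ZT14 (n = 7). The ranges of ZT2 and ZT14 overlapped, although 7 of the 8 ZT2 libraries lay above every ZT14 library. At ZT18 the spread was wide, 109 to 168 CPM (n = 6), and at ZT22 the range was 123 to 152 CPM (n = 8). The lowest values at ZT10, ZT18 and ZT22 were those of the 3 libraries that stand apart. Without them the range was 129 to 168 CPM at ZT18 (n = 5) and 131 to 152 CPM at ZT22 (n = 7). The ZT18 mean was then 144 CPM, close to the 145 CPM of ZT2.

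The fitted amplitude of Npas2 in D1 neurons was 0.13 ± 0.03 (SE, log2), with a peak at ZT 0.991 ± 0.925 h. It did not pass the edgeR test (adjusted p = 0.0752), and its raw p of 0.000623 ranked 119 among all genes. DESeq2 gave an adjusted p of 0.0177 and limma voom with quality weights 0.0163. Without the 3 libraries that stand apart the edgeR adjusted p was 0.0454 at an amplitude of 0.13, and with depth as a covariate it was 0.0369. With the letter as a block it was 0.0646. The size of the swing was similar in those fits, from 0.11 to 0.13, so the settings differ in which side of the threshold they place it. The raw edgeR p was 0.000542 without the 3 libraries (rank 170) and 0.000614 with depth (rank 238). Those settings also called more genes as a whole. The main fit called 71, against 177 without the 3 libraries, 314 with depth, 215 by DESeq2 and 717 by limma voom. No fit without a letter passed: the amplitude was lowest without D (0.0935, edgeR adjusted p = 0.855) and highest without A (0.16, adjusted p = 0.159). Within single letters of D1 neurons the amplitude of Npas2 was 0.07 in A, 0.17 in B, 0.12 in C and 0.24 in D, with peaks between ZT 22.1 and ZT 3.18.

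In D2 neurons Npas2 was not called under any alternative. The mean was highest at ZT2, at 144.9 ± 16.6 CPM (SD, n = 7), and lowest at ZT10, at 135.6 ± 22.2 CPM (SD, n = 8), a ratio of 1.07, and the lowest and highest single libraries were 113 and 177 CPM. The lowest, median and highest level was 121, 142 and 171 CPM at ZT2 (n = 7) and 113, 127 and 169 CPM at ZT10 (n = 8), so both times covered nearly the same range. At ZT18 it was 121, 132 and 177 CPM (n = 8). The fitted amplitude was 0.04 ± 0.04 (SE, log2), with an edgeR adjusted p of 1 (0.376 with the letter as a block). Its 95% interval, built symmetrically from the SE, was -0.04 to 0.11. An amplitude cannot be below 0, so such an interval is only approximate this close to 0.

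Clock, the other partner of BMAL1, had no called rhythm in either cell type. D1 means were lowest at ZT10, at 206 ± 27.2 CPM (SD, n = 8), and highest at ZT18, at 223 ± 10.8 CPM (SD, n = 6). The D1 low at ZT10 rests on 1 library: without the 3 that stand apart the mean was 216 ± 7.66 CPM at ZT10 (SD, n = 7), and the lowest was then ZT14, at 208 ± 12.6 CPM (SD, n = 7). D2 means were 216 ± 17.9 CPM at ZT10, the lowest, and 229 ± 13.9 CPM at ZT18, the highest (SD, n = 8 each). In D1 neurons the lowest, median and highest level was 141, 214 and 224 CPM at ZT10 and 212, 221 and 236 CPM at ZT18, so the medians differed less than the means, and the low value at ZT10 is that of the male library B. In D2 neurons it was 191, 217 and 242 CPM at ZT10 and 211, 226 and 258 CPM at ZT18. Every step between neighbouring times in the order of means was smaller than the larger SD of the pair, in both cell types. The fitted amplitude was 0.04 ± 0.03 in D1 neurons (SE, log2, edgeR adjusted p = 0.733) and 0.02 ± 0.03 in D2 neurons (adjusted p = 1, and 0.4 with the letter as a block). The upper 95% limits, approximate for amplitudes this close to 0, were 0.09 and 0.07, which lie below the lower limits for Arntl, 0.18 in both cell types. In D1 neurons 10.6% of genes, and in D2 neurons 6.45%, had a smaller fitted amplitude than Clock.

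**Figure D2:**
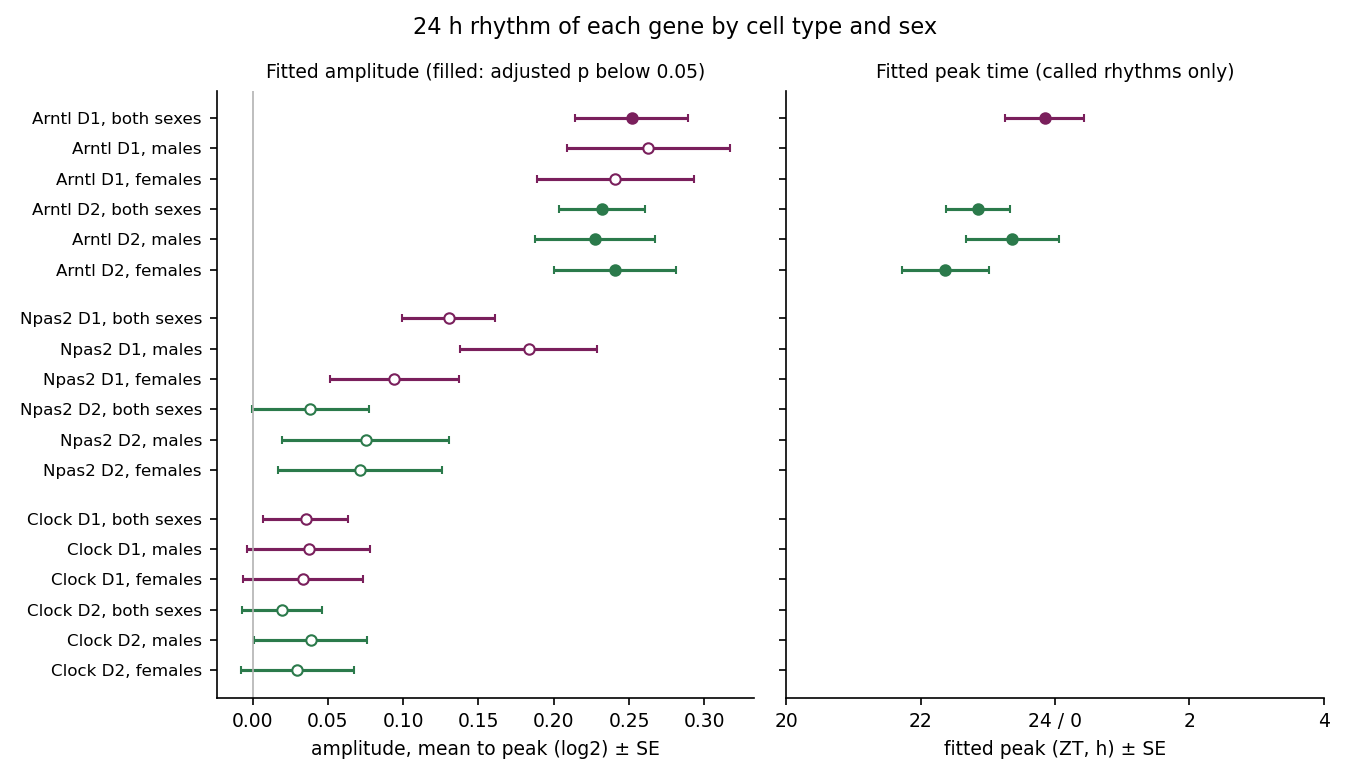
Left, fitted 24 h amplitude (log2, from mean to peak) of each gene in D1 and D2 neurons, for both sexes together and for each sex, with bars of 1 SE and filled points where the edgeR adjusted p is below 0.05; right, the fitted peak time (ZT, h) with its SE for the filled points. Arntl lies between 0.23 and 0.26 in every row, and its called peaks lie between ZT 22.4 and ZT 23.8.

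ZT2 and ZT10 were the times of the highest and lowest mean of Arntl, and their libraries did not overlap in either cell type. Split by sex, the same libraries cannot overlap either, so the ranges below describe each sex and add no separate support. In D1 males the 4 libraries of ZT2 lay between 51.6 and 55.4 CPM and the 4 of ZT10 between 22.7 and 40.7 CPM. In D1 females the 4 libraries of ZT2 lay between 52.5 and 58.4 CPM and the 4 of ZT10 between 36.0 and 43.8 CPM. D2 libraries kept the same order. In D2 males those of ZT2 (n = 4) lay between 53.1 and 77.2 CPM and those of ZT10 (n = 4) between 36.3 and 47.5 CPM. In D2 females those of ZT2 (n = 3) lay between 55.5 and 58.1 CPM and those of ZT10 (n = 4) between 37.2 and 44.0 CPM.

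The fitted rhythm of Arntl had a similar size in the sexes. In D1 males the amplitude was 0.26 ± 0.05 with a peak at ZT 23.7, and in D1 females 0.24 ± 0.05 with a peak at ZT 24.0 (SE, log2). In D2 males it was 0.23 ± 0.04 with a peak at ZT 23.4, and in D2 females 0.24 ± 0.04 with a peak at ZT 22.4. Taken alone, the sexes of D2 neurons each passed the edgeR test (adjusted p = 0.00687 in males, 0.00428 in females), where 0.237% and 0.495% of genes were called. Leaving out a letter ended these calls in males without B, C or D (edgeR adjusted p = 0.187, 0.262 and 0.102) and in females without A, C or D (0.072, 0.211 and 0.0794). Those of D1 neurons did not pass (adjusted p = 0.0761 in males, 0.265 in females), where 0.0418% and 0.0279% of genes were called. Without the 3 libraries that stand apart both did, with edgeR adjusted p-values of 0.0118 in males and 0.000291 in females. All 3 are male, so the female libraries were the same in both fits, with an amplitude of 0.24 in each. The sexes share a fit and its estimate of spread.

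Npas2 in D1 males had an amplitude of 0.18 ± 0.05 and a peak at ZT 1.93, and in D1 females 0.09 ± 0.04 and a peak at ZT 23.1 (SE, log2). Neither sex passed (edgeR adjusted p = 0.187 in males and 1 in females). The difference in rhythm between the sexes was itself tested, and none of the 3 genes was called in either cell type. That test called 0% of genes in D1 and 0% in D2 neurons by edgeR, where raw p-values were below 0.05 for 226 and 389 genes, and DESeq2 called 0 and 2. By limma voom it called 2885 genes in D1 and 3 in D2 neurons, with no activator among them. The sexes of Npas2 in D1 neurons differed by a vector of length 0.13 ± 0.06 (SE, log2, edgeR adjusted p = 1).

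Mean levels over the day were close in the sexes, and no activator was called, where 0.0418% of genes were in D1 and 0.216% in D2 neurons. Arntl averaged 45.1 ± 8.41 CPM in D1 males (SD, n = 22) and 46.6 ± 6.86 CPM in D1 females (SD, n = 23). The sign of that difference turned without the 3 libraries that stand apart. Clock averaged 208 ± 20.3 CPM in D1 males (SD, n = 22) and 220 ± 13.5 CPM in D1 females (SD, n = 23), a log2 difference of -0.08 ± 0.04 (SE, 95% interval -0.16 to -0.0031, edgeR adjusted p = 0.318). In D2 neurons Clock averaged 225 ± 17.6 CPM in males and 221 ± 17.3 CPM in females (SD, n = 23 each). The D1 male values include the libraries ZT10 B and ZT22 B, at 141 and 166 CPM, the lowest Clock levels of the series. Without the 3 libraries that stand apart the difference in Clock was -0.0402 (edgeR adjusted p = 0.714).

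Between the cell types, the rhythms were not shown to differ, whatever the calls within each. The difference in rhythm, D1 minus D2, had a length of 0.07 ± 0.05 for Arntl (edgeR adjusted p = 0.798), 0.10 ± 0.05 for Npas2 (adjusted p = 0.691) and 0.03 ± 0.04 for Clock (adjusted p = 0.891), as log2 values with SE. The fitted peaks of Arntl, ZT 23.8 in D1 and ZT 22.9 in D2 neurons, are covered by that test, which takes amplitude and timing together. By edgeR 0.0139% of genes were called in that test. By limma voom 2266 genes were called, with no activator among them. For Npas2 the approximate 95% interval of the length of the difference reached 0.20, so a difference larger than the D1 amplitude itself lies within it.

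Arntl was lower in D1 than in D2 neurons, by a small margin. It averaged 45.8 ± 7.60 CPM over the 45 D1 libraries and 49.2 ± 7.46 CPM over the 46 D2 libraries (SD), with the D1 mean lower at 6 of 6 times. The fitted log2 difference was -0.11 ± 0.03 (SE), a ratio of 0.926, with an edgeR adjusted p of 0.0117. It was 1 of 3 activators called, where 19.3% of all genes were called, 9.44% higher and 9.86% lower in D1. This call was lost without the 3 libraries that stand apart (-0.0739, edgeR adjusted p = 0.0548) and kept with the letter as a block and without them (-0.0724, adjusted p = 0.0292). It was also lost without letter A (-0.09, adjusted p = 0.0791), letter B (-0.06, adjusted p = 0.176) or letter D (-0.11, adjusted p = 0.0726).

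Clock averaged 214 ± 18.1 CPM over the 45 D1 libraries and 223 ± 17.4 CPM over the 46 D2 libraries (SD), a fitted log2 difference of -0.06 ± 0.03 (SE). It did not pass without the block (edgeR adjusted p = 0.119) and passed with it (0.0308). This block takes the effect of a letter as common to both cell types. Without the 3 libraries that stand apart the difference was -0.0293 (edgeR adjusted p = 0.345), and with the common block and without them it was -0.0311 (0.162), so the call with the common block rests on those libraries. With letter effects of its own in each cell type and all libraries it was -0.0614 (edgeR adjusted p = 0.0093). Npas2 averaged 135 ± 15.2 CPM over the 45 D1 libraries and 139 ± 18.4 CPM over the 46 D2 libraries (SD), a difference of -0.06 ± 0.04 (SE, edgeR adjusted p = 0.232), which turned to 0.02 with limma voom. Groups of libraries overlapped for all 3 genes.

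What labels the libraries differ by was not alike for the 3 genes. In D1 neurons the time of day held 60.7% of the variance of Arntl over libraries (log2 of CPM + 1), 38.6% of that of Npas2 and 9.85% of that of Clock. In D2 neurons it held 70.2%, 3.79% and 6.65% for the same genes. The replicate letter held 5.47% of the variance of Arntl in D2 neurons, against 59.4% for Npas2 and 66.8% for Clock. In D1 neurons the letter held 8.71% for Arntl, 6.97% for Npas2 and 25.7% for Clock. For Clock in D1 neurons letter B had the lowest mean, 198 ± 26.4 CPM (SD, n = 9). B includes the male libraries ZT10 B and ZT22 B, at 141 and 166 CPM, which stand apart, and letter E is 1 library. The shares of variance are not corrected for chance, by which any label of several levels holds some variance. The smaller ones are therefore not read as effects.

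By letter, Npas2 in D2 neurons averaged 157 ± 14.9 CPM in A (SD, n = 12), 149 ± 16.4 CPM in B (SD, n = 10), 128 ± 8.32 CPM in C (SD, n = 12) and 125 ± 7.42 CPM in D (SD, n = 12). Clock ran the other way, at 207 ± 10.1 CPM in A (SD, n = 12), 210 ± 10.0 CPM in B (SD, n = 10), 237 ± 12.2 CPM in C (SD, n = 12) and 236 ± 9.01 CPM in D (SD, n = 12). A and B thus lay together for both genes, and so did C and D. Depth went with the letter: the median total was 19297708 counts in A, 16094161 in B, 11019570 in C and 11432592 in D. Arntl ranged from 46.9 ± 6.92 CPM in C (SD, n = 12) to 51.8 ± 10.6 CPM in B (SD, n = 10), within its spread. With the letter as a block or depth as a covariate, neither Npas2 nor Clock was called rhythmic in D2 neurons; what the letters stand for was not tested.

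**Figure D3:**
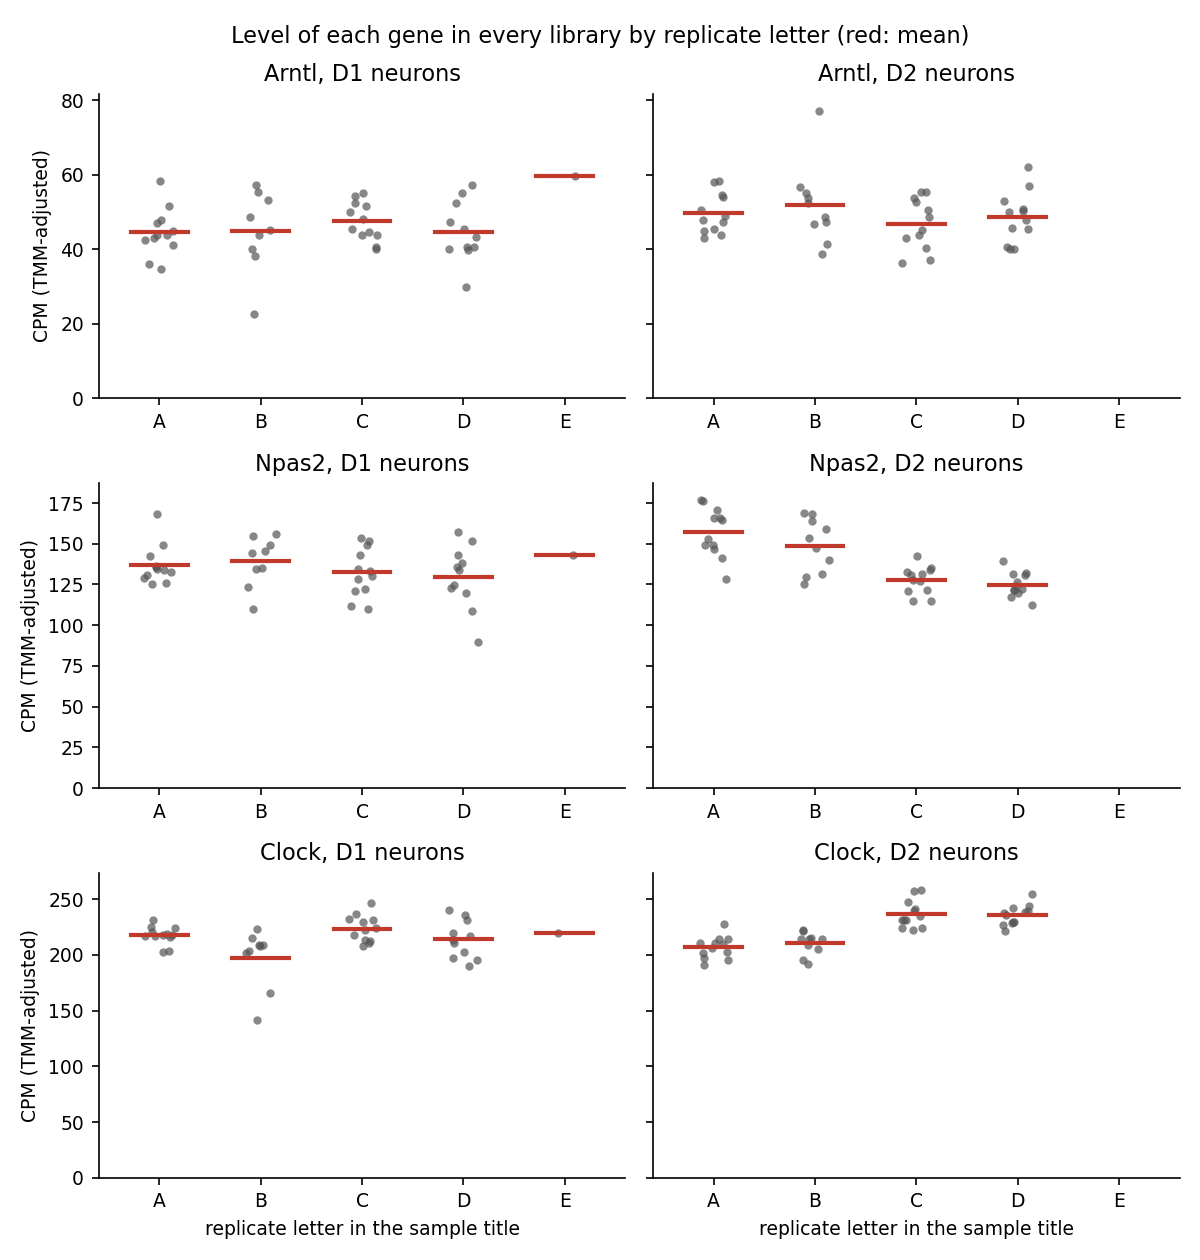
Level of each gene (CPM, vertical axis, from 0) in each library by the letter in its sample title (horizontal axis), with the mean of each letter as a red line. In D2 neurons Npas2 is higher in A and B (157 and 149 CPM) than in C and D (128 and 125 CPM), and Clock is lower in A and B (207 and 210 CPM) than in C and D (237 and 236 CPM).

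Whether libraries with more of one activator had more of another was asked for 6 relations, 3 in each cell type, on log2 of CPM + 1. The permutations shuffled all libraries of a cell type freely, so their p-values take no account of shared letter, time or sex. In D1 neurons libraries with more Arntl had more Npas2 (n = 45, Pearson r = 0.543, permutation p = 0.00032, adjusted 0.00096; Spearman rho = 0.563, permutation p = 8e-05, adjusted 0.00024). Without the 2 libraries farthest from the median of Arntl, r was 0.44, within letters A to D it ran from 0.413 to 0.699, and for deviations from the means of the groups of one sex and time it was 0.404. Arntl and Clock in D1 neurons gave r = 0.396 (permutation p = 0.0143, adjusted 0.0285; rho = 0.146, permutation p = 0.339, adjusted 0.509). This was 0.00308 without the 2 farthest libraries, so the pooled value rests on those. Within letters it was 0.425 in A, 0.582 in B, 0.216 in C and 0.044 in D, and for deviations from the group means it was 0.427.

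Clock and Npas2 in D2 neurons ran in opposite directions over 46 libraries (r = -0.664, permutation p = 1e-05, the smallest the permutations can give, adjusted 6e-05; rho = -0.629, permutation p = 3e-05, adjusted 0.00018). Without the 2 libraries farthest from the median of Clock, r was -0.63. Within letters it was -0.519 in A, 0.054 in B, -0.07 in C and 0.312 in D, so it kept its direction in A, with values near 0 in B and C and the opposite sign in D. For deviations from the group means it was -0.766; those deviations still hold the differences between letters. The remaining relations had adjusted permutation p-values above 0.05 for r and for rho, with r of 0.274 for Clock and Npas2 in D1 neurons, 0.283 for Arntl and Npas2 in D2 neurons and -0.134 for Arntl and Clock in D2 neurons. For deviations from the group means these were 0.138, 0.249 and -0.431 in the same order.

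**Figure D4:**
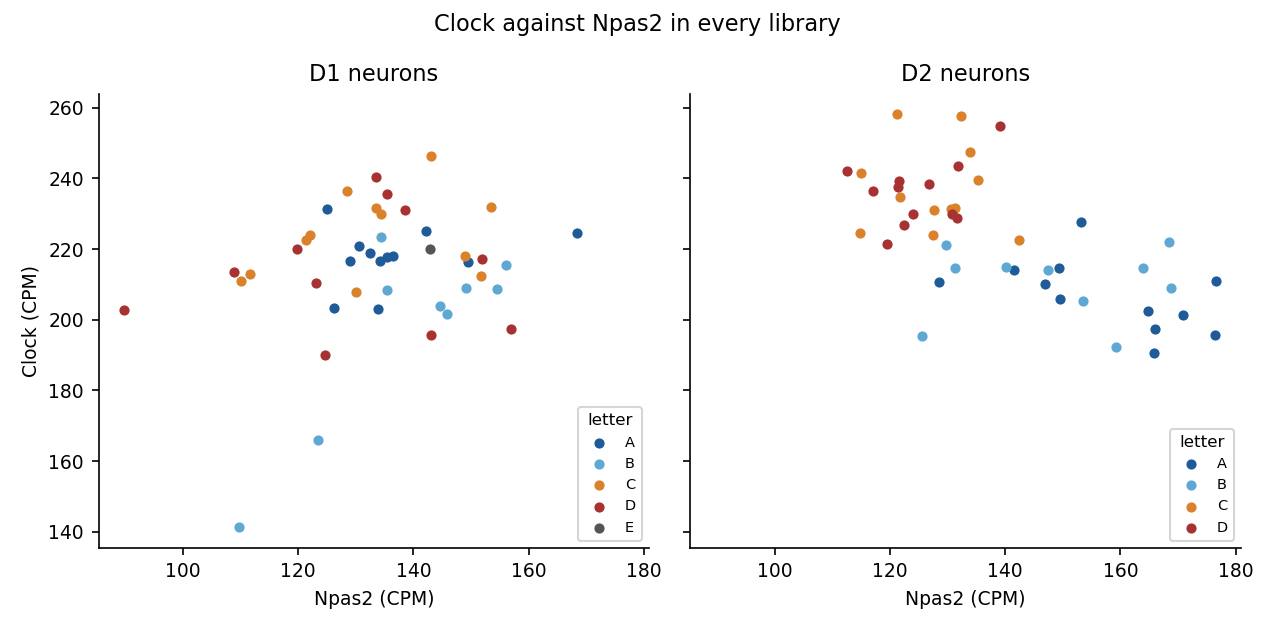
Clock (vertical axis, CPM) against Npas2 (horizontal axis, CPM) in each library of D1 neurons (left) and D2 neurons (right), coloured by the letter in the sample title; the axes do not start at 0. In D2 neurons the points of A and B lie mostly to the lower right of those of C and D, while within single letters the correlation ran from -0.519 in A to 0.312 in D.

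Over the 24 group means, each centred on its day within cell type and sex, the course of Arntl was most like that of ENSMUSG00000020251 (Pearson r = 0.865) and ENSMUSG00000068373 (r = 0.812) among 11809 genes with at least 5 CPM. It was most opposite to ENSMUSG00000038550 (r = -0.844) and ENSMUSG00000029287 (r = -0.833). The files do not pair these identifiers with names. ENSMUSG00000038550 was called rhythmic, with fitted peaks at ZT 11.4 in D1 and ZT 11.0 in D2 neurons. It and ENSMUSG00000029287 were picked as most opposite to Arntl in these same libraries, so peaks about opposite to that of Arntl follow from the pick. ENSMUSG00000029287 was called in D2 neurons (peak ZT 11.0, edgeR adjusted p = 0.00839) and not in D1 neurons (0.399). Both genes most like Arntl were called in neither cell type.

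The genes most like Arntl were picked as the highest of 11809 correlations, so any gene not picked, activators included, lay below them. Arntl and Npas2 gave r = 0.61 over the same 24 means. Of 11809 genes, Npas2 was the 144th most similar to Arntl, and Arntl the 129th most similar to Npas2. Clock and Npas2 gave r = 0.531, and Arntl and Clock gave r = 0.391. These correlations describe the means of these libraries, whose groups share letters and depth. The closest gene to Npas2 reached r = 0.837 and the closest to Clock r = 0.753.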

How the data were processed

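The authors deposited raw counts per gene, whole numbers that were not normalised. Per the submitters' processing notes, the tools were FastQC 0.11.7, HTSeq 0.10.0 and HISAT2, the last with no version; the builds GRCm38 and GRCh38 are named without their roles. Per the file's name, a filter on log CPM was applied. Neither its threshold nor the use of strand in counting is given in the sources used here. The labels mention 6 samples that the authors excluded. Homogenate and astrocyte samples were not analysed here.

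Counts of all 14355 genes were fitted in R 4.3.3 with edgeR 4.0.16 (TMM, quasi-likelihood F-test, Benjamini-Hochberg over all genes, threshold 0.05). Sex, the cosine and sine of 24 h and their products were fitted in 45 D1 libraries and in 46 D2 libraries, and with cell type in all 91. Rhythm was tested on cosine and sine together. The length of a difference in rhythm is the amplitude of the cosine that separates the groups. Differences are D1 minus D2 and male minus female. Alternatives were RLE size factors, filterByExpr, voom with quality weights (limma 3.58.1), DESeq2 1.42.0, a letter block, letters left out, 3 libraries left out, depth as a covariate, time as a factor, 1 rhythm for both sexes and 1 fit of all libraries. In the fit of all 91 libraries the letter block took the effect of a letter as common to both cell types. A block within cell type, with letter effects of its own in each, was added after the data were seen. The script was tested on simulated data.

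The genes, lists and tests were chosen with earlier results of these data known. Named genes are the 3 activators and, for each, the 2 genes with the highest and the 2 with the lowest correlation. Lists of other clock genes and of cell type markers were drawn up but not scored, since the reference table of 49997 genes pairs 0 Ensembl identifiers with symbols; the D1 and D2 labels were therefore not checked against markers, and at most 2 identifiers per direction are printed. The activators' identifiers were given with their symbols, and their loci and promoters were matched by symbol (3 of 3) in RefSeq tables on GRCm38.p6.

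Deviations of libraries from their group means correlated above 0.1 in all of the 243 same-letter pairs of D2 libraries (100%, lowest 0.217), so the letters were taken to pair D2 samples. In D1 libraries 70.0% of 223 pairs did (lowest -0.632), so they were not. The main fits of both cell types left the letter out, so the main D2 p-values do not use this pairing. Fits with the letter as a block are alternatives. No library was a copy of another of its group: over 129 pairs, the mean chi-square of a gene was at least 4.24, where 1 would be sampling noise.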

Additional observations from a re-analysis of the deposited data

Results flagged for a closer look

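In 36 sets of libraries (3 genes, 2 cell types, 6 times), the gap between the most extreme library and its nearest neighbour was compared with the range of the set by Dixon's criterion, and 4 sets passed it, where chance alone passes about 1 in 20. Arntl in the D1 male library ZT10 B was at 22.7 CPM, below the other 7 D1 libraries of ZT10. Clock in the same library was at 141 CPM, also the lowest of its set. Arntl in the D1 male library ZT18 D was at 30.0 CPM, below the other 5 D1 libraries of ZT18. Both libraries are among the 3 that stand apart. Arntl in the D2 male library ZT2 B was at 77.2 CPM, above the other 6 D2 libraries of ZT2, and without letter B its rhythm in D2 neurons kept an edgeR adjusted p of 5.79e-05.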

How the results depend on the processing

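The rhythm of Arntl passed in all alternatives, with an amplitude of 0.22 to 0.28 in D1 and 0.22 to 0.26 in D2 neurons (log2), and Clock was called rhythmic in none. None of the 3 genes was called for a rhythm difference between sexes or cell types, or for a sex difference in mean, in any alternative run. Over the 3 genes, 404 of the values under alternatives kept their side of the threshold, 19 gained a call and 10 lost one. Another 14, all differences in mean level, changed sign. Direction was not compared for rhythms called neither in the main fit nor in the alternative. The cause of the changes below was not tested.

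Npas2 passed in D1 neurons, with an amplitude of 0.13 by DESeq2, 0.11 by limma voom, 0.13 without the 3 libraries that stand apart, 0.12 with the replicate block and without them, and 0.12 with depth as a covariate. For Arntl in D1 males the amplitude passed at 0.26 by DESeq2, 0.20 by voom, 0.27 with the replicate block, 0.22 without the 3 libraries, 0.22 with block and without them, and 0.25 with depth. In D1 females it passed at 0.24 by DESeq2, 0.28 by voom, 0.24 without the 3 libraries and 0.23 with block and without them. Leaving out letters gave Arntl 0.19 to 0.27 in D2 males, where the call was lost without B, C or D, and 0.23 to 0.25 in D2 females, where it was lost without A, C or D.

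The mean of Arntl, D1 minus D2, was -0.0739 without the 3 libraries and -0.16 to -0.0635 over letters left out. That of Clock passed at -0.0628 with voom, -0.0576 with the replicate block and -0.0614 with a block within cell type, and ran from -0.10 to -0.0234 over letters left out, passing without A. That of Npas2 was 0.0181 with voom. Sex differences close to 0 changed sign. For Arntl in D1 neurons they were 0.0028 with voom, 0.0077 without the 3 libraries and 0.017 with block and without them, and in D2 neurons -0.0789 to 0.0049 over letters. For Npas2 in D1 neurons they were 0.0517 with voom, 0.0291 without the 3 libraries, 0.0457 with block and without them, 0.0273 with depth and -0.0784 to 0.0398 over letters. In D2 neurons they were -0.0038 with voom, -0.0275 with depth and -0.0018 to 0.0316 over letters.

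The number of all genes called moved more than the calls of the activators. For rhythm in D1 neurons it was 71, against 215 by DESeq2, 717 by voom, 162 with the replicate block, 177 without the 3 libraries, 293 with block and without them, 314 with depth, 26 with time as a factor, 175 in 1 fit of all libraries and 13 to 54 over letters left out. For rhythm in D2 neurons it was 422, against 669 by DESeq2, 3046 by voom, 3198 with the replicate block, 1076 with depth, 91 with time as a factor, 254 in 1 fit and 55 to 261 over letters. In D1 males it was 6, against 41 by DESeq2, 300 by voom, 19 with block, with or without the 3 libraries, 14 without them alone, 51 with depth and 0 to 8 over letters. In D1 females it was 4, against 8 by DESeq2, 1877 by voom, 7 without the 3 libraries, 28 with block and without them, and 1 to 4 over letters. In D2 males it was 34, against 144 by DESeq2, 3017 by voom, 1308 with block, 136 with depth and 3 to 26 over letters. In D2 females it was 71, against 261 by DESeq2, 338 by voom, 1799 with block, 346 with depth and 7 to 20 over letters.

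For the sex difference in mean the count was 6 in D1 neurons, against 15 by voom, 1042 with the replicate block, 33 with block and without the 3 libraries, 13 with depth and 2 to 294 over letters. In D2 neurons it was 31, against 48 by voom, 1357 with block and 7 to 28 over letters. For a rhythm difference between sexes it was 0 in D1 neurons, against 2885 by voom, and 0 in D2 neurons, against 2 by DESeq2, 3 by voom, 3 with block and 0 to 1 over letters. For a rhythm difference between cell types it was 2, against 32 by DESeq2, 2266 by voom, 76 with the replicate block, 465 with a block within cell type, 1 without the 3 libraries, 30 with block and without them, 63 with depth and 0 to 7 over letters. For the mean difference between cell types it was 2770, against 8248 by voom, 5471 with block, 6572 with a block within cell type, 6057 with block and without the 3 libraries, 4400 with depth and 1767 to 6912 over letters.

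The block changed no other call of an activator than those given. Arntl had 187 to 1231 counts per library, the fewest of the 3 genes; the SE of an amplitude also holds the spread between libraries, and in D2 neurons it was 0.0285 for Arntl and 0.0388 for Npas2.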
